A study of Caenorhabditis elegans with 6 samples.

Results

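Heterochronic genes are the genes that set the order and timing of stage-specific cell fates in the larva of *Caenorhabditis elegans*. In textbook accounts, *lin-14*, *lin-28* and *hbl-1* specify early larval fates and are shut off in turn by the microRNA lin-4 and by microRNAs of the let-7 family, while *lin-41*, another let-7 target, holds back the adult switch gene *lin-29*. *lin-42* and the hormone receptor gene *daf-12* tie this order to the moulting rhythm and to food. The 9 genes described here were chosen by name as members of this pathway: *lin-14*, *lin-28*, *hbl-1*, *sea-2*, *lin-46*, *daf-12*, *lin-41*, *lin-29* and *lin-42*. All 9 were on the array, among 17118 genes, and 18 probe sets named exactly 1 of them. Where a gene had several probe sets, its main value came from the brightest by mean of the 6 arrays.

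RNA levels were measured in fed first-stage larvae (L1) and in mixed embryos of the wild-type strain N2, with 3 Affymetrix arrays for each stage. Larvae hatched without food in M9 buffer (24 h, 20 °C) and were then kept at 10 worms per µL with 10 mg/mL of HB101 bacteria, an *Escherichia coli* strain, for 3 h. Embryos came from bleached gravid adults raised on HB101, and their arrays had been used in an earlier series. Stage, hatching without food, feeding and array set therefore cannot be told apart, and every stage difference contains each of these. In the source field the L1 samples are named as embryos, but titles and stage labels give L1. Titles of the embryo samples carry the label XX and a code that all of them share. Those of the L1 samples carry neither, and the titles do not say what the code means. Separate cultures for the replicates are not stated, so p-values reflect only the spread among these arrays, which may be technical. The RNA is of whole animals, so fewer cells of a type and less RNA per cell cannot be told apart.

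Values are RMA values on the log2 scale, where 1 unit is a 2-fold change. Each probe set binds with its own strength, so levels were compared between stages for the same probe set and not between genes. Array medians over all probe sets were at most 6.10 in L1 and 6.04 in embryos. The highest value among 32 probe sets for bacterial and yeast RNAs was 5.43, called the foreign control level here and picked as a mark after the data were seen. RMA compresses differences at this level. The hybridisation control cre, an RNA added during array processing, averaged 11.33 ± 0.08 in L1 and 4.61 ± 0.09 in embryos (SD, n = 3 each), and whether this bears on any gene was not tested.

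The largest fall and the largest rise among the 9 genes were those of *hbl-1* and *lin-41*. *hbl-1* fell by 2.80 log2 units in L1, to 14.4% of its level in embryos. *lin-41* rose 4.66-fold and *daf-12* rose 4.02-fold. *lin-42* fell to 38.5% of the embryo level. *lin-14*, *lin-29* and *lin-46* rose by less than 1 log2 unit at values near the foreign control level, *lin-28* fell by a small amount in its main probe set, and *sea-2* did not pass the test. With limma over all genes (Benjamini-Hochberg adjusted p under 0.05), 8 of 9 genes were called, against 64.4% of all genes. Of these, 5 rose, against 33.2% of all genes, and 3 fell, against 31.2% of all genes. Of the 9, 5 lie among the brighter genes (from the 50th percentile of level up). Of the brighter genes 85.3% were called, 38.3% as rises and 47.1% as falls. Calls with a difference over 1 log2 unit were made for 4 of the 9 genes, against 34.4% of all genes. The median absolute difference was 0.63 for the 9 genes and 0.54 for all genes.

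**Figure D1:**
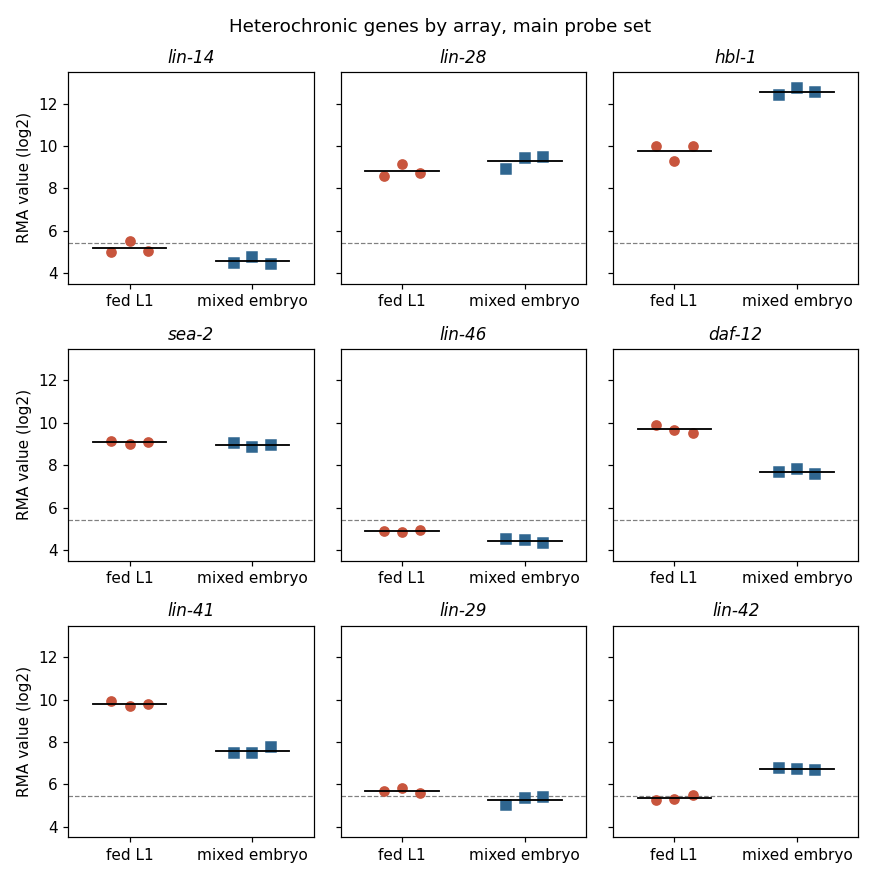
RMA values (log2) of the 9 heterochronic genes in the main probe set, with a point for each array (circles, 3 fed L1; squares, 3 mixed embryo), a bar at the mean of each stage and a dashed line at the highest foreign control value (5.43). The stages stand apart in *hbl-1*, *daf-12*, *lin-41* and *lin-42*, overlap in *lin-28* and *sea-2*, and lie near the dashed line in *lin-14*, *lin-46* and *lin-29*.

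The early-fate genes come first. *lin-14* encodes a nuclear DNA-binding protein that specifies L1 fates. The single probe set read 4.98, 5.53 and 5.06 on the L1 arrays, against 4.48, 4.77 and 4.41 on the embryo arrays. All L1 arrays lay above all embryo arrays, but L1 replicate 2 was the only array above the foreign control level. The difference was 0.63 (SE 0.15, n = 3 per stage; limma adjusted p = 0.00396). With arrays centred on ribosomal protein genes it was 0.28 and did not pass (limma adjusted p = 0.0863). The design of this probe set, marked _s, allows it to match more than 1 transcript. The same mark is on all probe sets of *hbl-1* and *lin-41* and on the main one of *lin-46*.

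*lin-28* encodes an RNA-binding protein that promotes second-stage fates and blocks the maturation of let-7. The main probe set read 8.59, 9.16 and 8.73 on the L1 arrays, against 8.93, 9.44 and 9.48 on the embryo arrays. L1 replicate 2 lay above embryo replicate A, so the stages overlapped. The difference was -0.46 (SE 0.18, n = 3 per stage; limma adjusted p = 0.0454). The other probe sets gave 0.13 (SE 0.10) and 0.19 (SE 0.13) and did not pass, and the mean of all 3 gave -0.04 with no call (limma adjusted p = 0.723). The fall of *lin-28* is thus a call of 1 probe set out of 3. Leaving out L1 replicate 1, L1 replicate 3, embryo replicate B or embryo replicate C also ended it, with differences of -0.34, -0.41, -0.38 and -0.36. The call was lost too after another quantile normalization (-0.29). It held in 8 of 15 alternatives, among them centring on array medians (-0.57) and on ribosomal protein genes (-0.81).

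*hbl-1* encodes a zinc finger transcription factor related to fly Hunchback, which specifies second-stage fates and also acts in embryos. Its main probe set read 10.02, 9.28 and 9.98 on the L1 arrays, against 12.40, 12.72 and 12.56 on the embryo arrays. Every L1 array was more than 2 log2 units below every embryo array, and the difference was -2.80 (SE 0.18, n = 3 per stage; limma adjusted p = 2.37e-07). The second probe set read 5.12, 4.55 and 5.11 on the L1 arrays, against 8.10, 8.06 and 7.99 on the embryo arrays. It gave -3.12 (SE 0.15), with all L1 arrays under the foreign control level, so this fall may be understated. The difference of *hbl-1* was larger in size than that of all but 8.03% of all genes. L1 replicate 2 was the lowest L1 array in both probe sets, and without it the main difference was -2.56.

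*sea-2* encodes a zinc finger protein known from sex determination and as a regulator of *lin-28*. Its main probe set read 9.16, 9.004 and 9.07 on the L1 arrays, against 9.03, 8.87 and 8.96 on the embryo arrays. The stages overlapped and the difference was 0.12, with a 95% interval of -0.08 to 0.32 (limma adjusted p = 0.268). The second probe set gave 0.20 (SE 0.17) and did not pass. The sign of the main difference turned with ribosomal protein centring (-0.23, not passed), and after another quantile normalization it was 0.30 and passed (limma adjusted p = 0.0131).

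*lin-46* encodes a protein related to the scaffold protein gephyrin that acts downstream of *lin-28* and opposes *hbl-1*. Its main probe set read 4.90, 4.83 and 4.93 on the L1 arrays, against 4.51, 4.47 and 4.35 on the embryo arrays. The stages did not overlap, and all 6 arrays lay under the foreign control level. The difference was 0.44 (SE 0.09, n = 3 per stage; limma adjusted p = 0.00112), and the second probe set gave 0.86 (SE 0.10), also with all 6 arrays under that level. Between the stages, foreign control probe sets had differences of -0.10 to 0.26, with a median of 0.06. With ribosomal protein centring *lin-46* differed by 0.09 and did not pass (limma adjusted p = 0.408).

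*daf-12* encodes the nuclear receptor of dafachronic acids, steroid hormones that link food and growth to the choice between reproductive development and the dauer larva. The brightest of 3 probe sets read 9.91, 9.67 and 9.52 on the L1 arrays, against 7.69, 7.82 and 7.57 on the embryo arrays. The stages were more than 1 log2 unit apart and the difference was 2.01 (SE 0.12, n = 3 per stage; limma adjusted p = 9.4e-08). A second probe set, at 5.60, 5.08 and 5.51 on the L1 arrays, against 4.74, 4.80 and 4.74 on the embryo arrays, gave 0.63 (SE 0.13) and passed. The third gave 0.05 (SE 0.10) with all 6 arrays under the foreign control level. The probe sets of *daf-12* thus agreed in sign and spanned 1.95 log2 units, and the mean of all 3 gave 0.90. RefSeq lists 7 transcripts of this gene, and which of them each probe set reads was not tested.

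*lin-41* encodes an RNA-binding protein of the TRIM-NHL family that keeps larval fates by repressing *lin-29* and that also acts in oocytes. The main probe set read 9.92, 9.71 and 9.80 on the L1 arrays, against 7.50, 7.50 and 7.77 on the embryo arrays. The stages did not overlap. The difference was 2.22 (SE 0.11, n = 3 per stage; limma adjusted p = 1.97e-08), larger in size than that of all but 12.9% of all genes. The second probe set read 6.08, 6.03 and 6.26 on the L1 arrays, against 5.42, 5.46 and 5.50 on the embryo arrays, and gave 0.66 (SE 0.09). Both probe sets rose, and the mean of both gave 1.44.

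*lin-29* encodes the zinc finger transcription factor at the end of the pathway, which switches epidermal cells to adult fates. Its probe set read 5.69, 5.82 and 5.59 on the L1 arrays, against 5.02, 5.36 and 5.39 on the embryo arrays. The stages did not overlap, with all L1 arrays above and all embryo arrays under the foreign control level. The difference was 0.44 (SE 0.12, n = 3 per stage; limma adjusted p = 0.00734). With ribosomal protein centring it was 0.09 and did not pass (limma adjusted p = 0.448). A further probe set, whose annotation pairs *lin-29* with a second gene ID, was not used for the gene. It read 5.32, 5.43 and 5.25 on the L1 arrays, against 5.31, 5.19 and 5.27 on the embryo arrays, and gave 0.08 (SE 0.09).

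*lin-42* encodes the worm relative of the clock protein Period, whose RNA rises and falls with each larval moult. Its main probe set read 5.28, 5.31 and 5.50 on the L1 arrays, against 6.78, 6.75 and 6.70 on the embryo arrays. All L1 arrays were more than 1 log2 unit below all embryo arrays, and L1 replicates 1 and 2 lay under the foreign control level. The difference was -1.38 (SE 0.09, n = 3 per stage; limma adjusted p = 2.79e-07) and may be understated for that reason. The second probe set gave 0.09 (SE 0.09), with all 6 arrays under the foreign control level, and the mean of both gave -0.64. RefSeq lists 7 transcripts of *lin-42*, and which of them each probe set reads was not tested.

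Over probe sets, 12 of 18 passed limma, against 63.3% of all probe sets, with 8 rises and 4 falls. Among the 7 genes with more than 1 probe set, all probe sets passed in 3 (*hbl-1*, *lin-46* and *lin-41*), some in 3 (*lin-28*, *daf-12* and *lin-42*) and none in *sea-2*. Within a gene the widest spans were 1.95 in *daf-12*, 1.56 in *lin-41* and 1.47 in *lin-42*, each between a brighter and a dimmer probe set. Signs differed within *lin-28* and *lin-42*, where the probe sets of positive sign did not pass. Differences between probe sets of a gene were not tested. For 5 of the 9 genes (*lin-28*, *hbl-1*, *sea-2*, *daf-12* and *lin-41*) all 6 arrays of the main probe set were above the foreign control level.

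**Figure D2:**
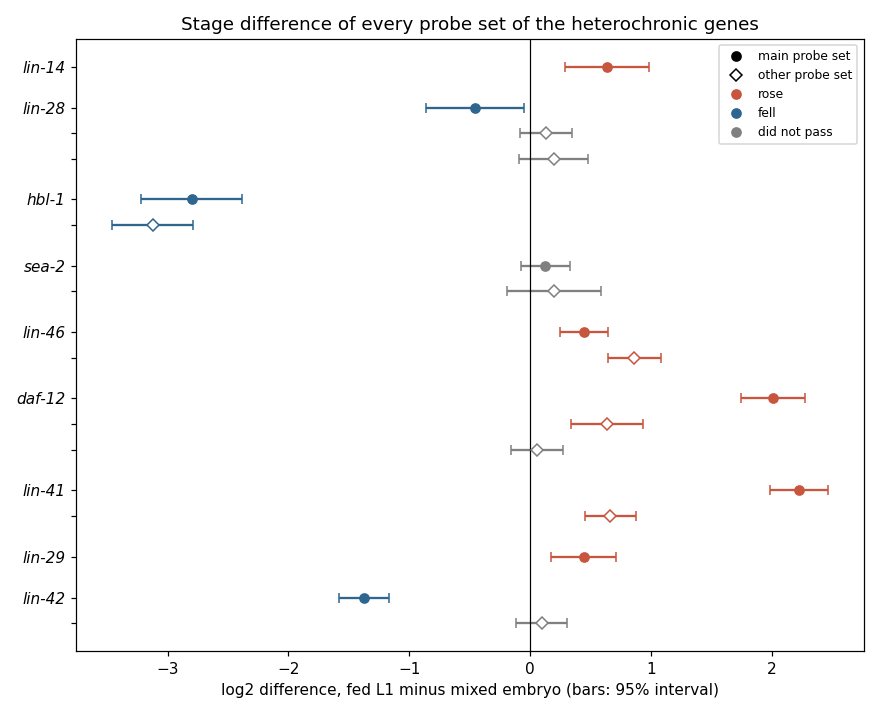
Log2 difference (fed L1 minus mixed embryo, 3 arrays each) of the 18 probe sets of the heterochronic genes, with 95% intervals from limma over all probe sets; filled circles are main probe sets, open diamonds the others, and colour gives the call. The intervals of *hbl-1* lie left of 0 in both probe sets and those of *lin-41* and *lin-46* right of 0, *daf-12* lies right of 0 in 2 of its 3 probe sets, and the 3 probe sets of *lin-28* lie near 0.

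Ordered by their main difference, the genes were *hbl-1*, *lin-42*, *lin-28*, *sea-2*, *lin-46*, *lin-29*, *lin-14*, *daf-12* and *lin-41*. The 95% interval of *hbl-1* (-3.21 to -2.39) did not meet that of *lin-42* (-1.58 to -1.17), which did not meet that of *lin-28* (-0.85 to -0.06). Because *lin-42* was at the foreign control level on 2 of 3 L1 arrays, its fall may be understated, and its order against *hbl-1* is not settled by these intervals. All intervals here cover only the spread among arrays of the main probe sets and not that between probe sets of a gene. Averaged over probe sets, *lin-42* gave -0.64 and *lin-28* gave -0.04, and the order of these genes was not tested. The interval of *lin-41* (1.98 to 2.46) overlapped that of *daf-12* (1.75 to 2.27). Those of *lin-46* (0.25 to 0.64), *lin-29* (0.18 to 0.71) and *lin-14* (0.29 to 0.98) overlapped each other. Arrays of the stages did not overlap in 7 of the 9 genes, against 70.6% of all genes. The genes on the X chromosome, *lin-14*, *hbl-1* and *daf-12*, had differences of 0.63, -2.80 and 2.01, while X-linked genes had a median of 0.10 and autosomal genes one of 0.04.

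The genes with the most similar pattern were found by the root mean square distance between values centred on each gene's own mean over the 6 arrays. For *lin-41* they were the cytochrome P450 gene *cyp-35A5* (distance 0.04, difference 2.17), the immunoglobulin domain gene *zig-5* (0.06 and 2.26) and the astacin protease gene *nas-5* (0.07 and 2.16). For *hbl-1* they were *appg-1* (distance 0.13, difference -2.88), *F21E9.2* (0.14 and -2.95) and *C38C6.3* (0.15 and -2.92). With 2 groups of 3 arrays, this distance mainly reflects the size of the stage difference.

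Other heterochronic and developmental clock genes went in both directions. Among 18 listed genes there were 5 rises, 8 falls and 5 without a call, against 33.2% rising and 31.2% falling over all genes. Of the 18, 13 lie among the brighter genes (from the 50th percentile of level up), of which 38.3% rose and 47.1% fell. The median difference was -0.06, against 0.05 for all genes. The largest rises were those of *nhr-8* and *daf-36*. *nhr-8*, a nuclear receptor gene that acts in sterol metabolism and dafachronic acid supply, read 9.14, 9.23 and 9.25 on the L1 arrays, against 6.60, 6.505 and 6.63 on the embryo arrays, and rose by 2.63 (SE 0.09). *daf-36*, which encodes the oxygenase at the start of dafachronic acid synthesis, rose by 2.06 (SE 0.12), with all embryo arrays under the foreign control level. *puf-9*, a Pumilio-family RNA-binding protein gene, rose by 0.81, with 0.09 in its second probe set. *daf-9*, the cytochrome P450 gene of the last step of dafachronic acid synthesis, rose by 0.56 (SE 0.09), with all embryo arrays under the foreign control level. With ribosomal protein centring *daf-9* differed by 0.21 and did not pass (limma adjusted p = 0.0579). *din-1*, a corepressor gene of DAF-12, differed by 0.09 (SE 0.15) and did not pass, and its sign turned with median centring and with ribosomal protein centring.

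The largest falls in this list were those of *nhr-23* and *blmp-1*, transcription factor genes of the moulting rhythm and of epidermal timing. *nhr-23* read 5.90, 5.89 and 5.65 on the L1 arrays, against 8.72, 8.90 and 8.94 on the embryo arrays, and fell by 3.04 (SE 0.11), while its dimmer probe set gave -0.21. *blmp-1* read 7.67, 7.73 and 7.85 on the L1 arrays, against 9.69, 9.80 and 9.51 on the embryo arrays. It fell by 1.92 (SE 0.10), and its second probe set gave -0.48. *kin-20*, a casein kinase gene whose product partners LIN-42, fell by 0.87 (SE 0.11), with -0.12 in its second probe set. *lin-66*, a regulator of *lin-28*, fell by 0.88 (SE 0.08), with up to -1.29 in its other probe sets. *mab-10*, a cofactor gene of *lin-29*, differed by -0.00064 with all 6 arrays under the foreign control level. *puf-9*, *daf-9*, *din-1*, *kin-20*, *lin-66* and *mab-10* were named after their values were seen. Centring on ribosomal protein genes left 3 rises and 12 falls among the 18, against falls in 56.6% of all genes.

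Most listed genes of microRNA processing and silencing were lower in L1. Falls numbered 10 among these 15 genes, with 1 rise and 4 without a call, and the median difference was -0.57. Of all genes 31.2% fell, and all 15 lie among the brighter genes (from the 50th percentile of level up), of which 47.1% fell and 38.3% rose, with a median of -0.18. *pup-2*, which encodes a uridylyltransferase that acts with LIN-28 on let-7 precursors, fell by 2.01 (SE 0.20). *cgh-1*, which encodes an RNA helicase of germline and somatic RNA granules, fell by 1.95 (SE 0.16). *xrn-1*, which encodes an exonuclease that degrades RNA from the 5′ end, rose by 1.75 (SE 0.11). Of the Argonaute genes that carry microRNAs, *alg-2* fell by 1.69 (SE 0.11) and *alg-1* differed by -0.08 (SE 0.15) and did not pass in its main probe set, while its others gave as low as -0.93. The sign of the main *alg-1* difference turned to 0.08 after another quantile normalization. These related genes were named after their values were seen, and whether their probe sets also bind RNA of the other gene was not tested. The microRNAs themselves were not analysed here.

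**Figure D3:**
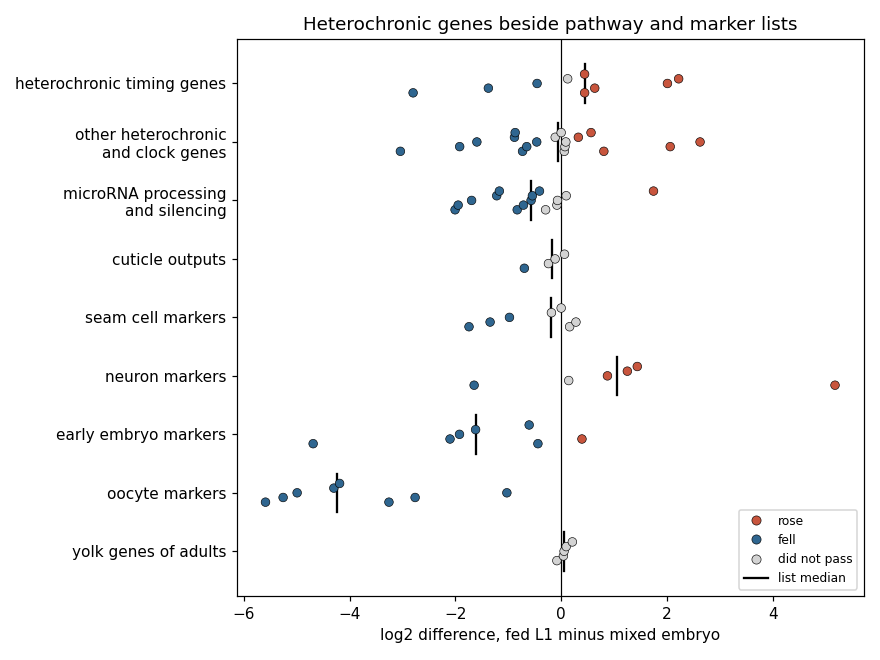
Log2 difference (fed L1 minus mixed embryo, main probe sets) of each measured gene in the heterochronic group and in the pathway and marker lists, with colour for the call and a black bar at each list's median. The heterochronic genes spread on both sides of 0 (median 0.44), microRNA genes lie mostly to the left (median -0.57), oocyte markers far to the left (median -4.24) and neuron markers mostly to the right (median 1.06).

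Cuticle genes used to read the pathway's output showed no rise. *col-19*, the adult collagen gene that *lin-29* activates, read 5.00, 5.08 and 5.01 on the L1 arrays, against 5.03, 4.94 and 4.93 on the embryo arrays. All were under the foreign control level, and the difference of 0.06 (limma adjusted p = 0.549) turned negative under each of the 3 other scalings, with a call under ribosomal protein centring (-0.29, limma adjusted p = 0.0138). The adult blister genes *bli-1* and *bli-2* differed by -0.11 and -0.24 and did not pass, but both passed as falls with centring on array medians or on ribosomal protein genes. *col-17*, a larval collagen gene, fell by 0.70 (SE 0.11), read by a probe set marked _x, whose design allows matches to related sequences. *col-7*, also listed, had no probe set that named it alone.

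Markers of seam cells and neurons were read beside the heterochronic genes, and their part in the differences above was not tested. Of 7 measured seam cell markers (of 10 listed), 3 fell, 0 rose and 4 did not pass, against falls in 31.2% of all genes. Among the brighter genes, where 6 of the 7 lie, 47.1% fell. Under ribosomal protein centring 5 of the 7 fell, against 56.6% of all genes. *elt-1* fell by 1.74 (SE 0.12) and *egl-18* fell by 1.34 (SE 0.11). The summed linear level of the 7 markers was 2103 to 2189.7 in L1 and 3178 to 4135 in embryos. *elt-6* and *egl-18* were the brightest and weighed most in that sum, and *lin-22* was under the foreign control level on all arrays. Of 6 neuron markers, 4 rose and 1 fell, against 33.2% and 31.2% of all genes. All 6 lie among the brighter genes, of which 38.3% rose and 47.1% fell. The summed level of the 6 markers was 16691 to 17001 in L1 and 5468 to 6002 in embryos. Most of that gap came from the probe set of *egl-3*, a gene of neuropeptide processing, without which the sums were 6993 to 7913 in L1 and 5222 to 5715 in embryos. *egl-3* and *ric-4* rose by 5.18 (SE 0.10) and 1.44 (SE 0.17), and *unc-119* fell by 1.65 (SE 0.09).

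Markers of oocytes, embryos and adults were read as a check of the stage labels. All 8 oocyte markers fell, against 31.2% of all genes and 47.1% of the brighter genes, among which all 8 lie. The summed level of the 8 oocyte markers was 715 to 782 in L1 and 9942 to 11225 in embryos. They were led by *cpg-2* (which fell by 5.59) and *spn-4* (which fell by 5.26). Of 7 measured early embryo markers (of 8 listed), 6 fell and 1 rose, against 31.2% and 33.2% of all genes. The summed level of these 7 was 246 to 265 in L1 and 933 to 1300.3 in embryos. *pes-10* fell by 4.69 (SE 0.15) and *sdz-38* by 2.10 (SE 0.14), both to values under the foreign control level, and *med-1* rose by 0.39 under that level in both stages, with 0.04 and no call under ribosomal protein centring. In L1, 5 of these 7 markers lay under the foreign control level on all arrays, against 6501 of all 17118 genes. The others, *end-1* and *end-3*, did not. *lin-41*, which is also an oocyte gene, went in the opposite direction to the oocyte markers. Of 5 measured yolk genes, which mark adults, 0 passed limma, against 64.4% of all genes, and 0 had an unadjusted p under 0.05. With ribosomal protein centring 3 of these 5 fell, against 56.6% of all genes. *vit-1*, *vit-2* and *vit-5* lay under the foreign control level on all 6 arrays, which limits what their lack of a call can show.

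*hbl-1*, *lin-42*, *lin-41* and *daf-12* kept their sign and passed limma under each alternative that gave them a value. Across these alternatives *hbl-1* ranged from -3.15 to -2.56, *lin-42* from -1.73 to -0.64, *lin-41* from 1.44 to 2.34 and *daf-12* from 0.90 to 2.14. The widest departures of the last 3 came from averaging a gene's probe sets. Centring on ribosomal protein genes moved the median difference of all genes to -0.30, against 0.05, and lowered every difference alike. Under it the share of rises among called genes was 28.7%, against 51.6%, and of the 9 heterochronic genes 2 rose and 3 fell, against 22.8% and 56.6% of all genes. Centring on array medians moved the median of all genes to -0.07.

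**Figure D4:**
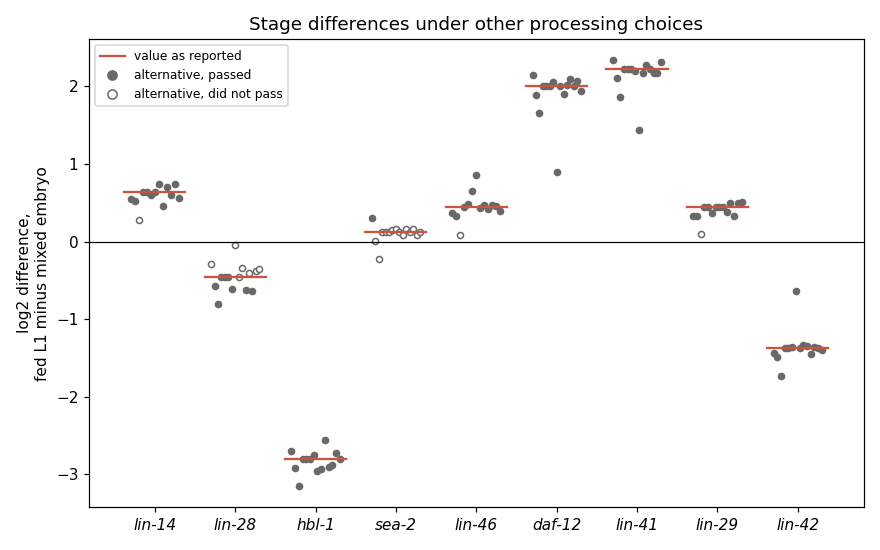
Log2 difference (fed L1 minus mixed embryo) of each heterochronic gene under each alternative processing choice (points; open where limma's adjusted p was not under 0.05) beside the reported value (coloured bar). Points of *hbl-1*, *lin-42*, *daf-12* and *lin-41* stay away from 0, whereas those of *lin-28* range from -0.81 to -0.04 and those of *sea-2* lie on both sides of 0.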

How the data were processed

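Total RNA (8 µg per sample) was made into biotin-labelled cRNA for Affymetrix arrays. The authors deposited RMA values on the log2 scale, per the submitters' processing notes; the RMA version, and whether all arrays were normalized together, are not given in the sources used here. Of 22625 probe sets, 77 controls were left out and 22548 tested; 20766 named 1 gene in the platform annotation. Chromosomes and transcript counts come from RefSeq (WBcel235).

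Fed L1 minus mixed embryo was tested over 17118 genes, and again over all probe sets, by limma 3.58.1 under R 4.3.3 (2-sided, eBayes after lmFit, dim genes kept). A call needed a Benjamini-Hochberg adjusted p under 0.05. SE is limma's moderated standard error. The fit was tested on simulated data.

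The members, lists and tests were chosen with earlier results of these data known. The rule for named genes took all members, the 2 largest rises and falls that passed in each other list, and all cuticle outputs. No 2 arrays were identical, arrays of a stage correlated at r of at least 0.9925 across probe sets, and 3 arrays per stage limit the precision. Alternatives covered normalization, scaling, dim genes, variance, weights, probe sets and each array left out.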

Additional observations from a re-analysis of the deposited data

Results flagged for a closer look

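The probe sets of the hybridisation control cre, which belong to no comparison above, read 11.33 ± 0.08 on the fed L1 arrays and 4.61 ± 0.09 on the mixed embryo arrays (SD, n = 3 each), a signal in control probe sets above the level in the embryo arrays.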

How the results depend on the processing

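Of the stage differences of single genes under alternatives, 115 kept their direction and their side of the threshold, 10 lost the call and 1 gained it (*sea-2* after another quantile normalization, 0.30), and 1 reversed (*sea-2* at -0.23 with ribosomal protein centring, not called). Of the lost calls, 7 were of *lin-28*, and the others were of *lin-14*, *lin-29* and *lin-46* with ribosomal protein centring. The count of members that rose was 2 with ribosomal protein centring, 2 over the brighter genes alone (from the 50th percentile up), which left out *lin-14*, *lin-29*, *lin-46* and *lin-42*, and 3 with probe sets without an _x or _s suffix, under which 1 fell; these probe sets gave no value for *lin-14*, *hbl-1* or *lin-41*. Over all 17118 genes 5685 rose and 5339 fell, against 3900 and 9686 with ribosomal protein centring. Over the 8559 brighter genes 3274 rose and 4030 fell. With probe sets without an _x or _s suffix, 4487 of 13618 genes rose and 3796 fell. Replicates carry numbers in L1 and letters in embryos, so no pairs of arrays are given. Signal near the foreign control level limits *lin-14*, *lin-29*, *lin-46* and the L1 values of *lin-42*, and 3 arrays per stage limit all of them.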

Other observations

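The spread between the L1 arrays was wide in the main probe sets of *hbl-1*, *lin-14* and *lin-28*. Their SDs in L1 of 0.42, 0.30 and 0.30 were above those of 99.8%, 97.8% and 97.8% of all genes, whose median SD in L1 was 0.11. L1 replicate 2 was the array farthest from the mean of its stage in each. It lay 0.34 above that mean in *lin-14*, 0.33 above it in the main probe set of *lin-28* and -0.48 from it in *hbl-1*. Both *hbl-1* probe sets and the second probe sets of *daf-12* and *sea-2* were lowest on this array. The third probe set of *lin-28*, at 8.02, was lower there than on the other L1 arrays (8.42 and 8.45). The second probe set of *lin-28* was also lowest on L1 replicate 2 but spread little, at 8.88, 8.82 and 8.91 (SD 0.04). The clock gene *nhr-25* was also lowest there, at -0.30 from its stage mean. Over all genes the median absolute deviation from the stage mean was 0.0761 for L1 replicate 2, against 0.0650 and 0.0698 for the other L1 arrays. Of 42 genes with a wider L1 spread than *hbl-1*, 24 had their lowest and 14 their highest L1 value on replicate 2. These genes were picked after their values were seen, and no test was made.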
